A study of Mus musculus with 12 samples.

Results

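The genes described here encode the tiers of the mitogen-activated protein (MAP) kinase cascades and the dual-specificity phosphatases. Their symbols are Mapk, Map2k, Map3k, Map4k and Dusp followed by a number. Bulk polyA RNA sequencing had been done on bone marrow-derived macrophages, primary macrophages grown from mouse marrow, of male C57BL/6J mice aged 8 weeks. All cells had received an siRNA, either a control (siControl) or one against Ehd1 (siEhd1), and were either unstimulated (M0, resting) or treated with lipopolysaccharide (M1, LPS). The 4 groups were resting siControl, resting siEhd1, LPS-treated siControl and LPS-treated siEhd1, with 3 libraries each. EHD1 is a protein of endocytic recycling, and the series sets it in the context of macrophage inflammation, sortilin and atherosclerosis. No group was free of siRNA. The LPS dose and duration, the siRNA sequences and the time of collection were not given in the sources used here.

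In a MAP kinase cascade each kinase phosphorylates and activates the next. Cell surface signals reach MAP4 and MAP3 kinases, these activate MAP2 kinases, and these activate the MAP kinases of the ERK, JNK, p38 and ERK5 branches. Lipopolysaccharide, from the outer membrane of Gram-negative bacteria, is sensed by Toll-like receptor TLR4, which feeds into the cascades through the MAP3 kinases TAK1 (Map3k7) and TPL2 (Map3k8). Many dual-specificity phosphatases remove phosphate from both the threonine and the tyrosine of the MAP kinase activation loop. Several of their genes are themselves switched on by the cascades, a negative feedback well known in macrophages. The class taken by symbol also holds atypical enzymes, so its counts are not those of MAP kinase phosphatases alone. RNA levels say nothing of kinase or phosphatase activity, which was not measured here.

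Of 24421 genes in the count tables, 65 had a matching symbol, and 53 of those reached at least 10 counts in at least 3 of the 12 libraries. The 53 genes comprised 8 MAP kinases, 7 MAP2 kinases, 14 MAP3 kinases, 5 MAP4 kinases and 19 dual-specificity phosphatases, so 34 kinases in all, and each of them was tested. Of the 12 genes left out, 5 had 0 counts in every library (Mapk4, Mapk10, Dusp15, Dusp21 and Dusp26). Just outside the rule lay Dusp27, with 7 to 13 counts in resting and 0 to 3 in LPS-treated libraries, and Mapk12, with 1 to 14 counts over all libraries. Just inside lay Dusp13, with 24 to 42 counts in the resting and 5 to 13 in the LPS-treated libraries, so that it entered through the resting cells.

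Library totals lay between 18572725 and 22545272 counts. Levels are given as CPM, read counts relative to the library total after TMM correction, as each library's value or as mean ± SD over 3 libraries. The siRNA target was lower in every siEhd1 library: Ehd1 stood at 53.3, 52 and 54.4 CPM with siControl and 33.6, 32 and 28.9 CPM with siEhd1 in resting cells, and at 678, 631 and 550.2 against 282, 319 and 304.5 CPM after LPS. All 8 macrophage markers were detected, with a summed level of 19640 to 38650 CPM per library. Markers of T and NK cells summed to at most 0.0854 CPM with Cd3e and Ncr1 at 0, those of B cells to at most 0.440 CPM, and those of neutrophils (S100a8, S100a9, Mpo and Elane) to at most 3.66 CPM. The 4 fibroblast markers summed to between 0.256 and 13.9 CPM. The endothelial list summed to between 14.2 and 33.8 CPM and was mostly Kdr, with Tek at no more than 0.0496 CPM. In bulk RNA a change in the number of cells that express a gene and a change in RNA per cell cannot be told apart.

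Compared per kilobase of exon, the MAP kinase gene with the highest RNA level was Mapk3 (ERK1), at 113 CPM per kb in resting siControl cells. Mapk14 (p38 alpha) reached 43.3 CPM per kb, whereas Mapk11 (p38 beta) had 0.639 and Mapk8 (JNK1) 0.771 CPM per kb, on the same per-length scale. Among the phosphatases Dusp3 (VHR, a small atypical enzyme) stood first at 64.1 CPM per kb, followed by Dusp7 (23.2), Dusp4 (19.6) and Dusp1 (11.2 CPM per kb). The median over the 34 kinases was 9.35 CPM per kb and that over the 19 phosphatases 2.32 CPM per kb. After LPS with siControl the order of the 53 genes by CPM per kb moved most for Map3k9, from rank 20 to rank 38, Dusp23, from rank 33 to rank 16, and Dusp22, from rank 25 to rank 40. Dusp3 went from rank 2 to rank 9 and Dusp1 from rank 17 to rank 5, while Mapk3 kept rank 1. Neighbouring ranks were close and were not tested against each other.

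The largest changes were those with LPS. With siControl 18 of the 53 genes rose and 26 fell (edgeR adjusted p under 0.05 over 12164 genes tested), where 34.8% of all tested genes rose and 34.0% fell. Of the 34 kinase genes 13 rose and 15 fell, with a median log2 fold change of -0.030. Of the 19 phosphatase genes 5 rose and 11 fell, with a median of -0.51, against -0.010 over all genes tested. The counts of falls with LPS and the phosphatase median include Dusp13, which met the count rule through the resting libraries. With siEhd1 16 of the 53 genes rose and 23 fell, beside 32.9% and 34.0% of all tested genes. Without composition factors, that is with library totals alone, the median LPS effect over all genes shifted to -0.21 with siControl and -0.24 with siEhd1, and the split of the 53 genes became 13 higher and 32 lower, and 12 higher and 34 lower. Resting and LPS-treated libraries were deposited in separate tables, so any difference in handling between them cannot be told apart from LPS.

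**Figure D1:**
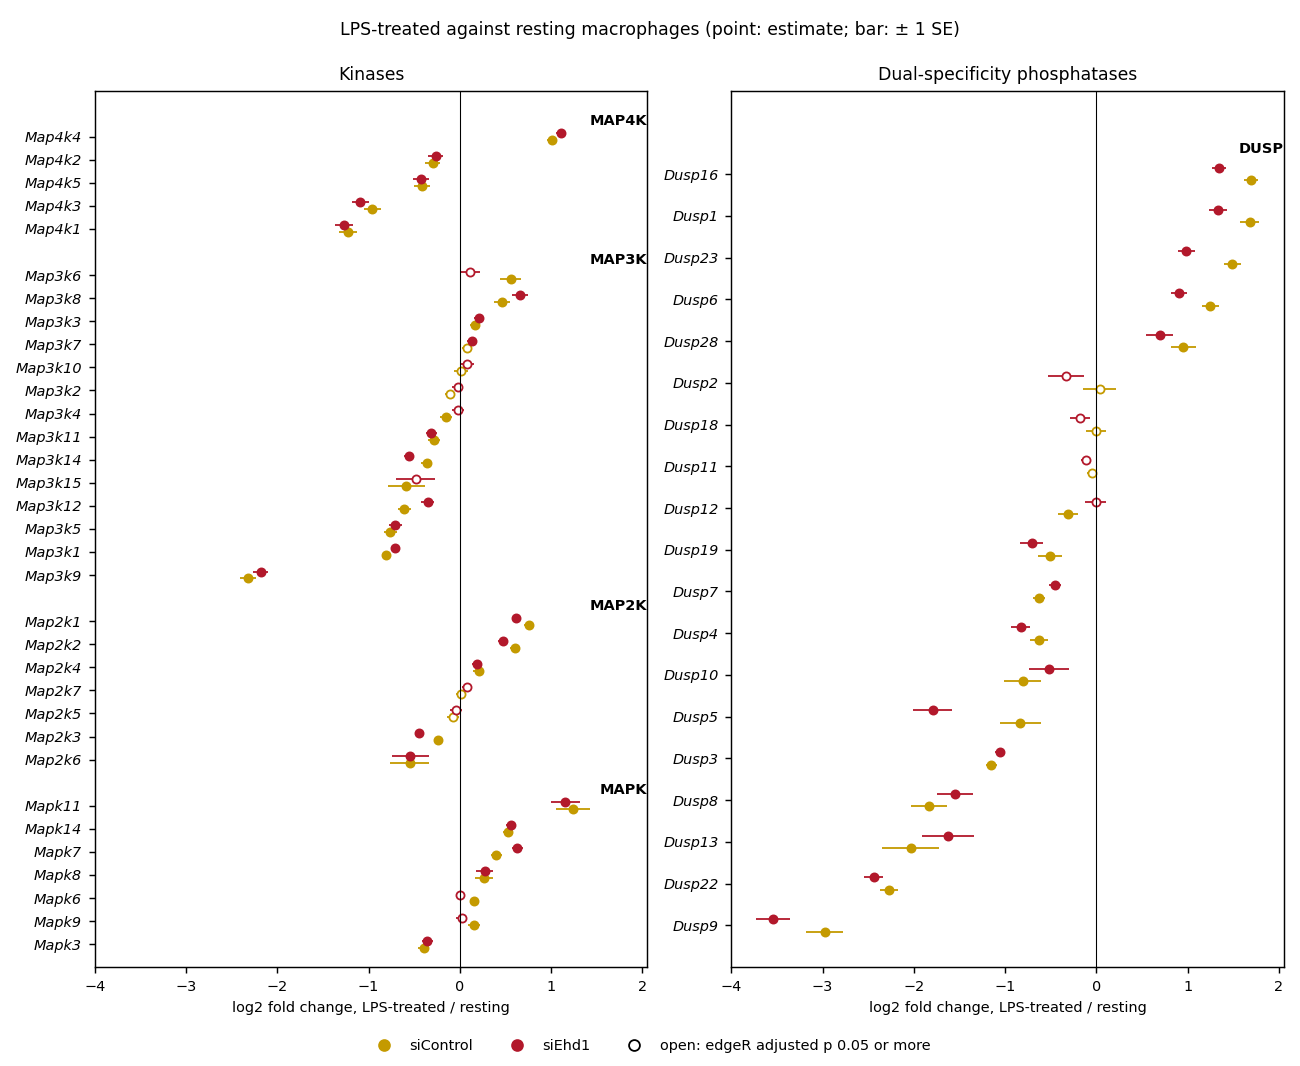
Log2 fold change (x axis) of LPS-treated against resting macrophages for 52 genes, in kinases by tier (left) and phosphatases (right). Points are edgeR estimates with siControl (yellow) and siEhd1 (red), bars are 1 SE, and open points have an adjusted p of 0.05 or more. Dusp13 is drawn, although its direction was in part fixed by the count rule. The phosphatase genes range from -2.98 (Dusp9) to 1.69 (Dusp16) with siControl, and among kinase genes Mapk11 and Map4k4 rise and Map3k9 and Map4k1 fall by 2-fold or more with siControl.

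The 5 phosphatase genes that rose with LPS rose under both siRNAs: Dusp16, Dusp1, Dusp23, Dusp6 and Dusp28. Dusp16, which encodes a phosphatase of JNK and p38 (chromosome 6, 134715468 to 134792625, minus strand of GRCm38), stood at 13.8, 13.5 and 14.7 CPM in the resting siControl libraries and 48.5, 46.2 and 40.7 CPM in the LPS-treated ones (log2 fold change 1.69, SE 0.077, adjusted p = 5.3e-14). Every LPS-treated library was above every resting one, by 3.23-fold on average. Dusp1, the inducible nuclear phosphatase that shuts off p38 and JNK in activated macrophages (chromosome 17, 26505590 to 26562128, minus strand, a longer model than that of RefSeq), went from 33.7, 38.2 and 39.1 CPM to 98, 122 and 135 CPM (log2 fold change 1.68, SE 0.10, adjusted p = 1.3e-09). The groups did not overlap, but the LPS-treated siControl libraries spread more widely than the resting ones (118 ± 18.8 against 37 ± 2.87 CPM), with replicate 1 the lowest. Dusp6, a cytoplasmic phosphatase selective for ERK, rose from 16.9, 17.9 and 20.7 to 43.1, 43.9 and 44.7 CPM (log2 fold change 1.25, SE 0.092, adjusted p = 5.2e-10). Dusp23, an atypical small phosphatase, rose from 6.91, 6.93 and 6.98 to 20.3, 20.5 and 17.8 CPM (log2 fold change 1.49, SE 0.10, adjusted p = 1.8e-11). The less abundant Dusp28 rose from 3.04 ± 0.325 to 5.9 ± 0.585 CPM (log2 fold change 0.95, SE 0.14, adjusted p = 3.3e-06). For these genes no LPS-treated library overlapped a resting one.

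The stretch before the RefSeq start site is shown for Dusp1, Dusp16 and Dusp6, which rose together, and for Dusp8, which fell and carries the same response element as Dusp1. Each run holds the 250 bases upstream of the start in RefSeq GRCm38.p6, read 5′ to 3′ on the gene's strand, and capitals mark TGACGTCA, the cAMP response element, or its part TGACG, found on either strand by letter match.
Dusp1 (chr17:26508473-26508722, minus strand): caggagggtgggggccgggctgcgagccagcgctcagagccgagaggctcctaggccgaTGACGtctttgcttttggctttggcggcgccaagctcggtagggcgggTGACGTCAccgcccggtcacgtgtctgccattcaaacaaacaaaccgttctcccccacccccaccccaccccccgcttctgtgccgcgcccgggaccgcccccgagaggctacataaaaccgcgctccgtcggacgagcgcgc
Dusp16 (chr6:134792629-134792878, minus strand): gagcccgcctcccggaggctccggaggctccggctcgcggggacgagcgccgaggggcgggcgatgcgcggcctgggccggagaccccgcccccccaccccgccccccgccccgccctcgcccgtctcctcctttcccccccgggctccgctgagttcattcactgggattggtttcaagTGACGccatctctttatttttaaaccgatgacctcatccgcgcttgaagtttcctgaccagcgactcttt
Dusp6 (chr10:99262981-99263230, plus strand): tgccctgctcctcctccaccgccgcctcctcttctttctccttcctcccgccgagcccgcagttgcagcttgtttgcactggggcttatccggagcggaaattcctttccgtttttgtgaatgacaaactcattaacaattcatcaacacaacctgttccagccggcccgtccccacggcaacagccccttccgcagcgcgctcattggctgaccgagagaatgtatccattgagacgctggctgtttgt
Dusp8 (chr7:142095285-142095534, minus strand): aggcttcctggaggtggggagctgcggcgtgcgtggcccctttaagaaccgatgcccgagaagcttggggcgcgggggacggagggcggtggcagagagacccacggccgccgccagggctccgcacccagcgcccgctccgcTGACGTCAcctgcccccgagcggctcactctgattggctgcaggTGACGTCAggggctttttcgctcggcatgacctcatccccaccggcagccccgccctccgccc

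Promoters of 44 of the 53 genes were in the RefSeq table. TGACGTCA was found in 2 of the 44 (4.55%), Dusp1 and Dusp8, against 3.12% of 9316 tested genes with a promoter and 1.77% of all 27025 genes with one. In Dusp1 it began 143 bases before the start, and Dusp8 carried it at 107 and at 63 bases before the start. The shorter TGACG, which every TGACGTCA also contains, was found in 17 of 44 (38.6%), against 30.9% of tested genes. An AP-1 site, TGANTCA, lay in 4 promoters (Dusp13, Map2k6, Map2k7 and Map3k10, 9.09%), the kappaB consensus in 5 (Dusp22, Map3k7, Map4k1, Map4k2 and Mapk7, 11.4%) and a CArG box in 1 (Dusp5, 2.27%). The same motifs were present in 5.57%, 8.27% and 1.28% of tested genes. These are letter matches on both strands in a window of 250 bases and show no binding. Of the genes with a full TGACGTCA, 1 rose with LPS and 1 fell.

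The phosphatase genes that fell with LPS included the largest change among the 53. Dusp9, an ERK-selective cytoplasmic phosphatase encoded on the X chromosome, stood at 4.97, 5.22 and 6.85 CPM in resting siControl cells and 0.74, 0.595 and 0.808 CPM after LPS (log2 fold change -2.98, SE 0.21, adjusted p = 5.9e-11). Dusp22, an atypical phosphatase, fell from 43.3, 38.9 and 40.5 to 10.8, 7.38 and 7.28 CPM (log2 fold change -2.27, SE 0.10, adjusted p = 2.3e-13). Dusp3, the phosphatase gene with the highest level per length at rest, fell from 300.4, 301.5 and 299 to 124, 141 and 140.1 CPM (log2 fold change -1.15, SE 0.057, adjusted p = 2.1e-13). In each case all LPS-treated libraries lay below all resting ones. Low-level Dusp8, whose product acts on JNK and p38, fell from 3.92, 4.17 and 3.25 to 0.937, 1.09 and 1.14 CPM (log2 fold change -1.83, SE 0.20, adjusted p = 5.7e-08). Dusp13, which is among the 26 that fell, gave 1.42 ± 0.315 and 0.341 ± 0.0909 CPM. Since it met the count rule through the resting libraries, its direction was in part fixed by that rule. No test of Dusp13 is given in the text, though it is counted among the falls and drawn with the LPS effects. The genes of the inducible nuclear phosphatases DUSP4 and DUSP5, which act on ERK, were also lower. Dusp4 fell from 45.1, 58.9 and 56.8 to 30.1, 35.5 and 38.2 CPM (log2 fold change -0.63, SE 0.10, adjusted p = 5.7e-05), and Dusp5 from 4.29 ± 0.853 to 2.4 ± 0.887 CPM (log2 fold change -0.83, SE 0.23, adjusted p = 0.0038). Dusp7, Dusp10, Dusp12 and Dusp19 also fell, with log2 fold changes from -0.81 to -0.31. Dusp2, Dusp11 and Dusp18 did not pass the test (0.035, -0.049 and -0.002), although Dusp11 was called lower with library totals alone.

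**Figure D2:**
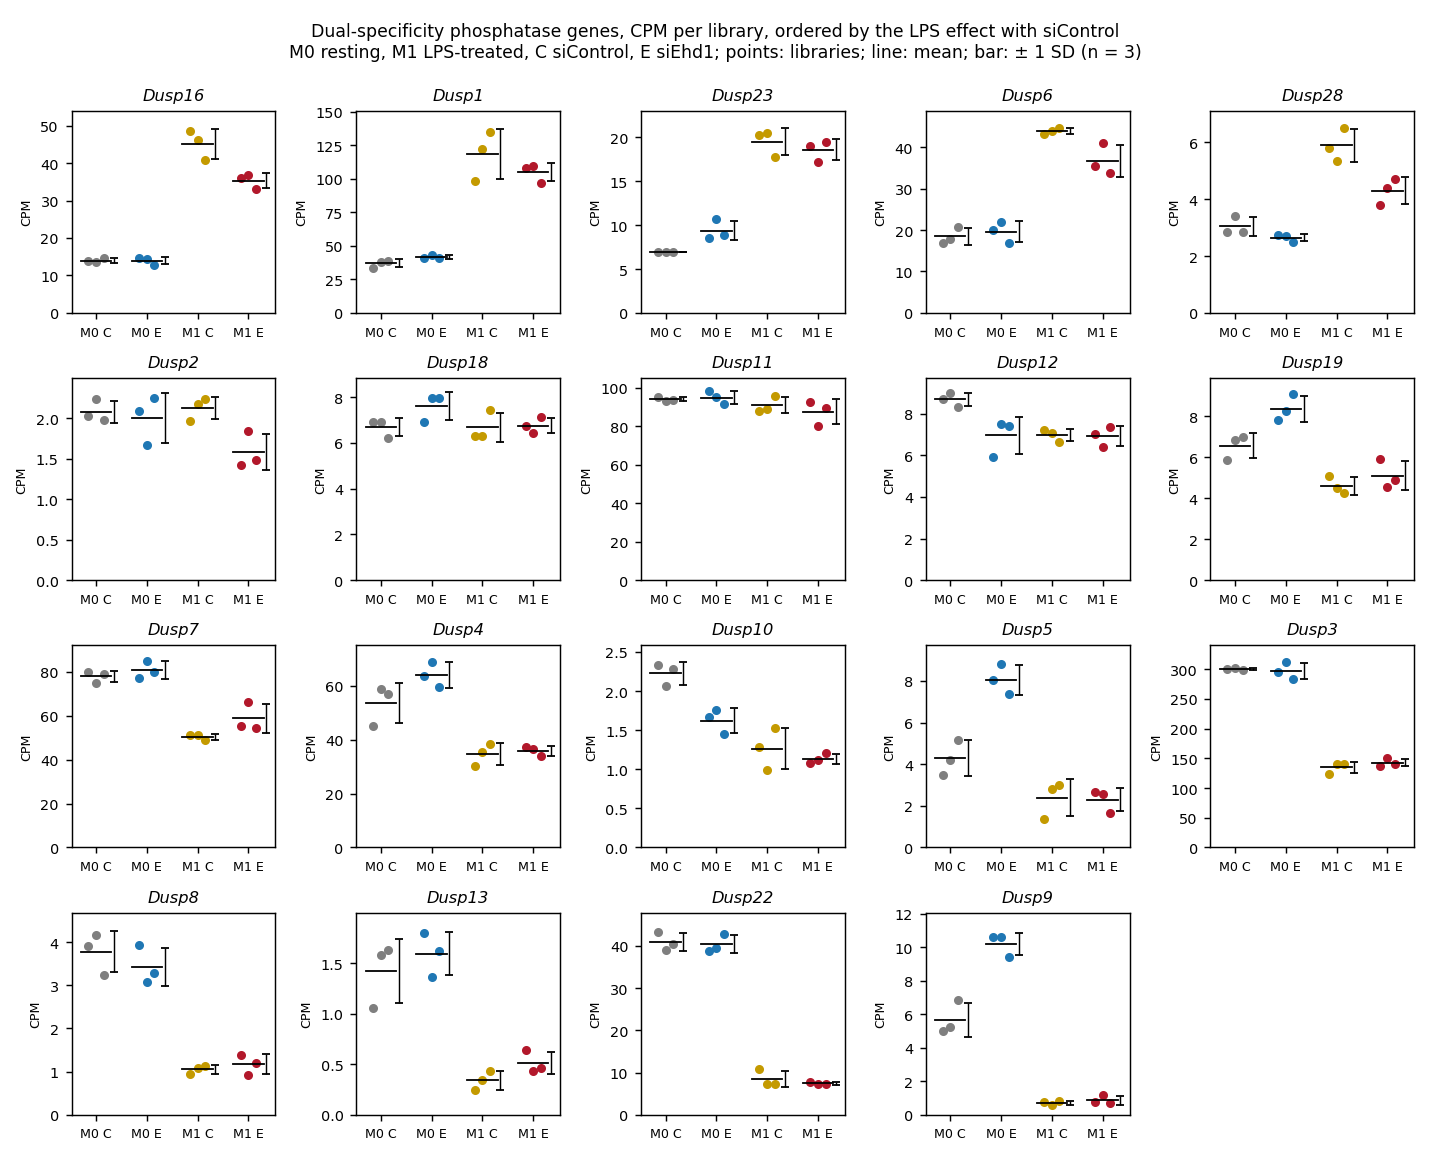
CPM (y axis, from 0) of the 19 phosphatase genes in each library, ordered by the LPS effect with siControl. M0 is resting and M1 LPS-treated, C is siControl and E siEhd1, points are libraries, lines are means and bars 1 SD (n = 3). Dusp16 and Dusp1 are higher after LPS than at rest, Dusp22 falls to 10.8 CPM or less and Dusp9 to 1.16 CPM or less in every LPS-treated library, and Dusp5 and Dusp9 are higher with siEhd1 in resting cells.

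Among the MAP kinases themselves the p38 genes rose with LPS. Mapk14, the main p38 gene of macrophages, went from 204, 183 and 181 to 284, 268 and 267 CPM (log2 fold change 0.53, SE 0.056, adjusted p = 4.7e-08), and Mapk11 from 1.5, 2.41 and 1.62 to 4.59, 4.56 and 3.95 CPM (log2 fold change 1.24, SE 0.18, adjusted p = 5.4e-06). Mapk7, which encodes ERK5, rose from 44.4 ± 2.78 to 58.5 ± 2.04 CPM (log2 fold change 0.40, SE 0.059, adjusted p = 4.7e-06). All LPS-treated libraries of these genes were above all resting ones. The ERK1 gene Mapk3 fell from 253, 249 and 264 to 206, 199 and 179 CPM (log2 fold change -0.39, SE 0.060, adjusted p = 7.9e-06). The JNK genes rose by little: Mapk8 from 8.83 ± 0.68 to 10.6 ± 0.656 CPM (0.27, SE 0.10, adjusted p = 0.018) and Mapk9 from 42.6 ± 0.929 to 47.4 ± 3.04 CPM (0.15, SE 0.062, adjusted p = 0.032). The call for Mapk8 was lost without resting siControl replicate 1 or LPS-treated siControl replicate 2, and with library totals alone. That for Mapk9 was lost without resting siControl replicate 1 or 3 or LPS-treated siControl replicate 3, and its sign turned with library totals alone (-0.042). Mapk6 (ERK3) rose by 0.16 (SE 0.048, adjusted p = 0.0055), a direction that also turned under that scaling (-0.036).

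One tier up, the ERK-activating kinase genes rose with LPS. Map2k1 (MEK1) went from 131, 135 and 139 to 226, 233 and 225 CPM (log2 fold change 0.75, SE 0.051, adjusted p = 3.5e-11) and Map2k2 (MEK2) from 83.5, 81.9 and 87.2 to 129.5, 132 and 122 CPM (log2 fold change 0.60, SE 0.054, adjusted p = 3.6e-09). For both genes the LPS-treated and resting libraries did not overlap. The p38-activating kinase genes went the other way: Map2k3 fell from 122 ± 3.28 to 103 ± 4.02 CPM (-0.24, SE 0.050, adjusted p = 0.00031) and the scarce Map2k6 from 2.43 ± 0.254 to 1.65 ± 0.382 CPM (-0.55, SE 0.21, adjusted p = 0.027). The Map2k6 call was lost without resting siControl replicate 1 or 3, or LPS-treated siControl replicate 1 or 2. Of the JNK-activating pair, Map2k4 rose by 0.21 (SE 0.059, adjusted p = 0.0039), no longer past the threshold with library totals alone, and Map2k7 gave 0.016 (SE 0.056, adjusted p = 0.81; called lower, at -0.18, with library totals alone). Map2k7 shares 35.2% of its exon bases with an overlapping gene model on the same strand, so its counts are uncertain.

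Of the 14 MAP3 kinase genes 3 rose and 8 fell, beside 34.8% and 34.0% of all tested genes. Map3k9, a mixed-lineage kinase gene (chromosome 12, 81721010 to 81781175, minus strand), stood at 68.3, 56.3 and 57.5 CPM in resting siControl cells and at 10.6, 12.6 and 13.2 CPM after LPS (log2 fold change -2.32, SE 0.084, adjusted p = 1.2e-15). It was the largest change among the 34 kinase genes, and the groups were far apart. Map3k1 (MEKK1) fell from 127, 126 and 120.3 to 68.2, 71.6 and 73.9 CPM (log2 fold change -0.81, SE 0.049, adjusted p = 6.2e-12), and Map3k5, the stress-responsive ASK1, from 34.6 ± 0.469 to 20.4 ± 1.09 CPM (log2 fold change -0.76, SE 0.072, adjusted p = 7.6e-09). Map3k12, Map3k14 (NIK, the kinase of the noncanonical NF-kappaB pathway), Map3k11, Map3k4 and Map3k15 also fell, with log2 fold changes from -0.61 to -0.15. The libraries of Map3k15 overlapped between the groups, and its call was lost without resting siControl replicate 1 or 2 or LPS-treated siControl replicate 1. The Map3k4 call (adjusted p = 0.049) was lost without either resting siControl replicate 1 or 2, or LPS-treated siControl replicate 2 or 3. Map3k8 (TPL2), which couples TLR4 to the ERK branch, rose from 24.7, 24.4 and 19.9 to 31.5, 29.3 and 34.3 CPM (log2 fold change 0.46, SE 0.084, adjusted p = 6.3e-05). Map3k6 (ASK2) rose from 5.46 ± 0.62 to 8.04 ± 0.208 CPM (log2 fold change 0.56, SE 0.11, adjusted p = 0.00021). Map3k3 (MEKK3) rose by 0.17 (SE 0.053, adjusted p = 0.009), a sign that turned with library totals alone (-0.029) and a call lost without resting siControl replicate 2. Map3k7 (TAK1), the kinase common to Toll-like receptor signalling, gave 62.6 ± 0.575 and 65.9 ± 4.69 CPM and did not pass the test (0.074, SE 0.055, adjusted p = 0.24).

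Of the 5 MAP4 kinase genes 1 rose and 4 fell, beside the same 34.8% and 34.0%. Map4k4, a kinase of the JNK branch, went from 140.1, 143 and 146 to 293, 294 and 277.5 CPM (log2 fold change 1.01, SE 0.056, adjusted p = 1.5e-12). Map4k1 (HPK1, a kinase of blood cells) fell from 23.7, 24.4 and 28.4 to 12.2, 10.1 and 10.3 CPM (log2 fold change -1.23, SE 0.10, adjusted p = 3.6e-10), and Map4k3 from 102, 108 and 108.5 to 44.8, 55.2 and 63.7 CPM (log2 fold change -0.96, SE 0.091, adjusted p = 1.5e-07). None of the 3 overlapped between the groups. Map4k2 and Map4k5 fell by less (-0.30 and -0.41).

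The LPS effects under siEhd1 pointed the same way for most genes. In both arms 15 genes rose and 23 fell, and 0 were called in opposite directions. Of all tested genes 68.8% were called with siControl and 67% with siEhd1. The share of all genes called alike in both arms was not computed, so these counts are not set against it. Map3k4, Map3k6, Map3k15, Mapk6, Mapk9 and Dusp12 were called with siControl alone, and Map3k7 with siEhd1 alone (0.13, SE 0.056, adjusted p = 0.046; -0.094 with library totals alone). That call was lost without resting siEhd1 replicate 1 or 2 or LPS-treated siEhd1 replicate 1 or 3. With a replicate block over the siEhd1 libraries, whose numbers went together across the states, Map3k7 (adjusted p = 0.052) and Dusp10 no longer passed, each by a small margin, and Map3k15 did. With siEhd1 the rises of Dusp16 and Dusp1 were 1.34 and 1.33, that of Dusp6 0.91 and that of Dusp23 0.98, and the falls of Dusp9 and Dusp5 were -3.54 and -1.79. Whether these differ between the siRNAs is the same question as whether siEhd1 acted differently in the 2 states, and the test of that difference is given with the siEhd1 effects.

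In resting cells siEhd1 was followed by changes of moderate size. Of the 53 genes 9 rose and 9 fell, beside 14.0% and 14.2% of all tested genes, and no estimate reached 2-fold. The largest rises were in Dusp5, Dusp9 and Mapk11, and the largest falls in Map3k3, Map3k8 and Mapk7. Of the 34 kinase genes 5 rose and 8 fell, 5 of those 8 at the MAP3 kinase tier. Of the 19 phosphatase genes 4 rose and 1 fell. The number that fell was 5 without siControl replicate 1 or without siControl replicate 2, and 4 without siEhd1 replicate 1, while the number that rose stayed between 6 and 9 when any 1 library was left out. After LPS 2 genes rose and 5 fell with siEhd1, beside 4.44% and 4.10% of all tested genes.

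**Figure D3:**
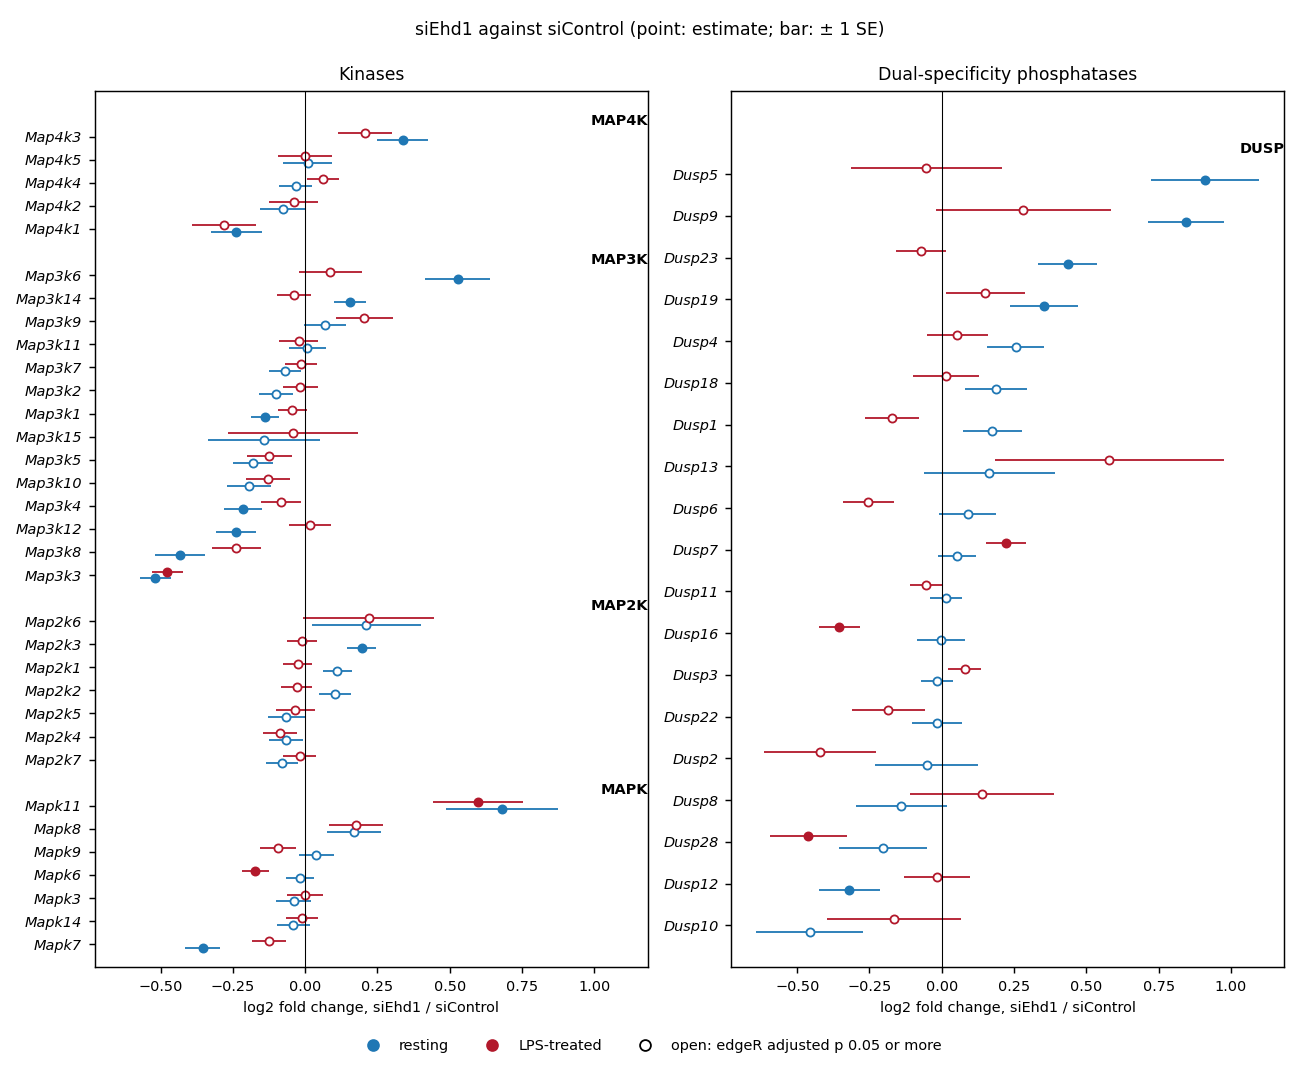
Log2 fold change (x axis) of siEhd1 against siControl for 52 genes in resting (blue) and LPS-treated (red) macrophages, in kinases by tier (left) and phosphatases (right). Points are edgeR estimates, bars are 1 SE, and open points have an adjusted p of 0.05 or more. Map3k3 lies below 0 and Mapk11 above 0 with filled points in both states, and Dusp5 and Dusp9 lie farthest to the right in resting cells.

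The genes called in both states included Map3k3, lower, and Mapk11, higher. Map3k3 encodes MEKK3, a MAP3 kinase of the ERK5 and p38 branches (chromosome 11, 106084613 to 106155446, plus strand). It stood at 146, 136.5 and 143 CPM with siControl and 94.2, 102 and 101 CPM with siEhd1 in resting cells (log2 fold change -0.52, SE 0.054, adjusted p = 5.6e-07), and at 152, 161 and 164.5 against 114, 120.3 and 109 CPM after LPS (log2 fold change -0.48, SE 0.054, adjusted p = 9.9e-06). Every siEhd1 library was below every siControl library in both states, at 69.8% and 71.8% of control. Map3k3 kept its call in both states under every alternative setting tried. Mapk3 gave 255 ± 7.95 and 248 ± 8.49 CPM at rest and 194 ± 13.9 and 194 ± 14.1 CPM after LPS, with overlapping libraries and log2 fold changes of -0.040 (SE 0.060) and -0.001 (SE 0.061).

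Mapk11, the p38 beta gene (chromosome 15, 89142486 to 89149628, minus strand), was higher with siEhd1 at a low level. It stood at 1.5, 2.41 and 1.62 against 2.52, 3.29 and 3.07 CPM at rest (log2 fold change 0.68, SE 0.19, adjusted p = 0.012) and at 4.59, 4.56 and 3.95 against 5.95, 6.2 and 7.74 CPM after LPS (log2 fold change 0.60, SE 0.15, adjusted p = 0.019). The groups did not overlap, though at rest the highest siControl and the lowest siEhd1 library were close. The resting call was lost without siControl replicate 1 or without siEhd1 replicate 2, and the call after LPS without siControl replicate 3 or without siEhd1 replicate 3. Mapk14, the abundant p38 gene, gave log2 fold changes of -0.041 (SE 0.056) and -0.010 (SE 0.056) and did not pass the test in either state.

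Further kinase genes fell in resting cells. Map3k8 stood at 24.7, 24.4 and 19.9 CPM with siControl and 17.4, 15.4 and 18.4 CPM with siEhd1 (log2 fold change -0.43, SE 0.088, adjusted p = 0.00098), and Mapk7 at 47.6, 42.7 and 42.9 and 33.6, 35.8 and 34.6 CPM (log2 fold change -0.35, SE 0.060, adjusted p = 0.00017). All siEhd1 libraries of both genes were below all siControl libraries, and so they were after LPS, where neither passed the test (-0.24, adjusted p = 0.089, and -0.12, adjusted p = 0.22). Map3k12 (DLK) went from 34 ± 2.12 to 28.8 ± 0.837 CPM (-0.24, SE 0.068, adjusted p = 0.012), Map3k4 from 35.8 ± 1.69 to 30.8 ± 1.56 (-0.21, SE 0.066, adjusted p = 0.02) and Map4k1 from 25.5 ± 2.52 to 21.6 ± 1.13 CPM (-0.24, SE 0.087, adjusted p = 0.047). Map3k1 fell least, from 125 ± 3.74 to 113 ± 2.16 CPM (-0.14, SE 0.048, adjusted p = 0.033). These smaller falls kept their sign in every fit, but their calls were lost when some libraries were left out, 1 at a time. Leaving out siEhd1 replicate 1 ended the call of each of the 4, leaving out siControl replicate 1 that of Map3k12, Map3k4 and Map3k1, and leaving out siControl replicate 2 that of Map3k4, Map4k1 and Map3k1. Without siControl replicate 3 Map4k1 was lost, without siEhd1 replicate 2 Map4k1 and Map3k1, and without siEhd1 replicate 3 Map3k4, Map4k1 and Map3k1. Exons of Map3k12 overlap those of genes on the opposite strand over 19.3% of their bases, and whether the counting used strand is not given in the labels.

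Kinase genes that rose in resting cells came from 4 tiers. Map3k6 stood at 4.75, 5.92 and 5.71 CPM with siControl and 7.69, 8.54 and 7.41 CPM with siEhd1 (log2 fold change 0.53, SE 0.11, adjusted p = 0.0014). Map4k3, which encodes a kinase of JNK and mTOR signalling, stood at 102, 108 and 108.5 and 136, 135 and 132 CPM (log2 fold change 0.34, SE 0.087, adjusted p = 0.0095). Map2k3 rose from 121, 118 and 125 to 134, 144 and 139 CPM (log2 fold change 0.20, SE 0.050, adjusted p = 0.0059). In each of these genes the groups were separate, and the Map4k3 libraries were tight on both sides. Map3k14 rose from 44.1 ± 1.2 to 49.1 ± 1.84 CPM (0.15, SE 0.055, adjusted p = 0.04), a call lost without any 1 of the siControl libraries and without siEhd1 replicate 2 or 3. After LPS the same genes gave 0.087, 0.21, -0.011 and -0.039 with siEhd1, none past the threshold, although Map4k3 passed it without siControl replicate 3.

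**Figure D4:**
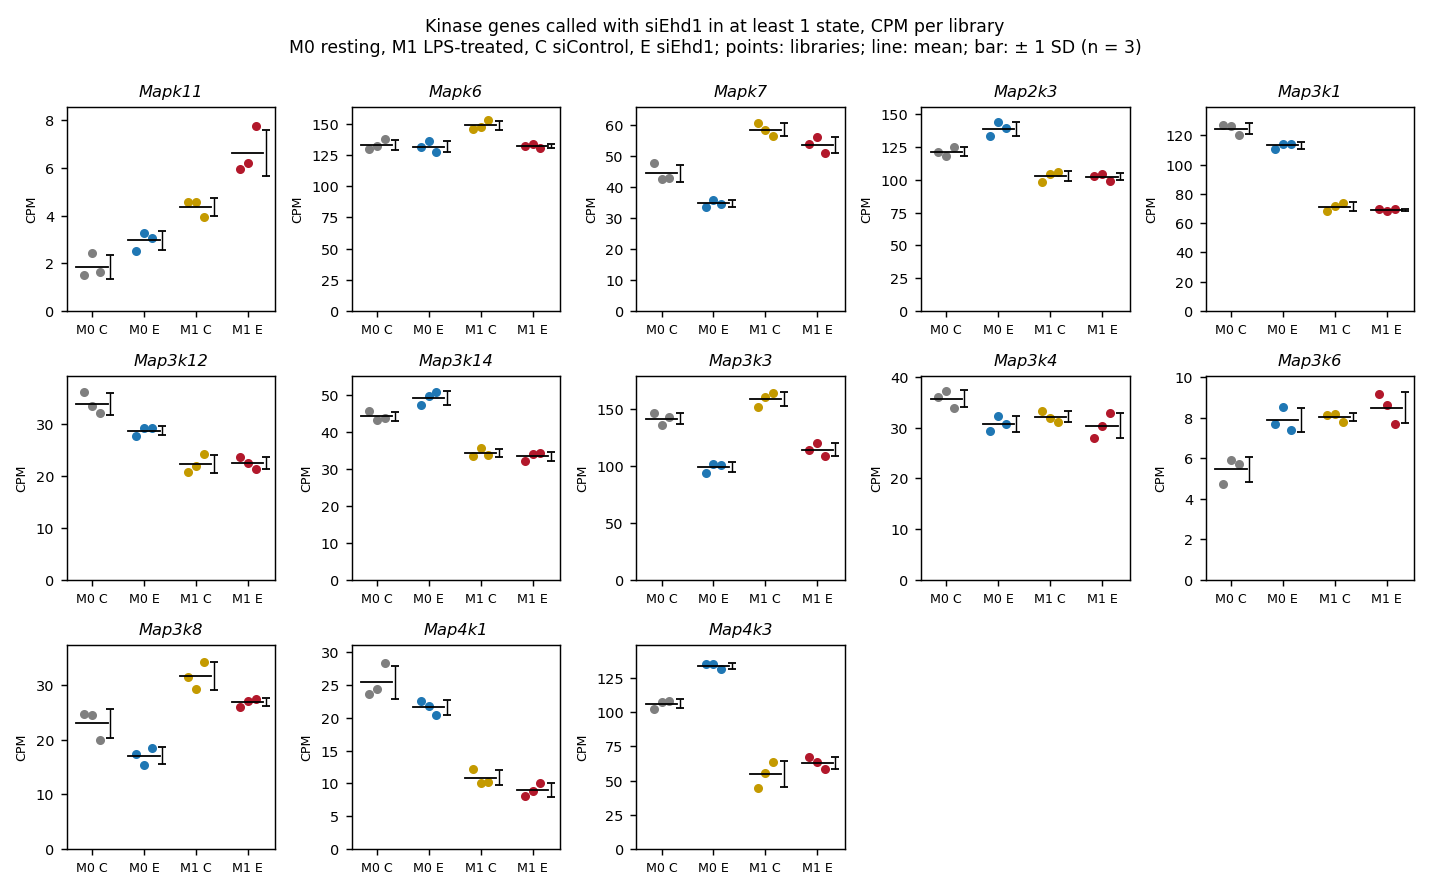
CPM (y axis, from 0) of 13 kinase genes called with siEhd1 in at least 1 state, in each library. M0 is resting and M1 LPS-treated, C is siControl and E siEhd1, points are libraries, lines are means and bars 1 SD (n = 3). Map3k3 is lower and Mapk11 higher with siEhd1 in both states, and Map3k1, Map4k1 and Map4k3 are lower after LPS than at rest with either siRNA.

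The phosphatase genes that rose with siEhd1 in resting cells were Dusp5, Dusp9, Dusp23 and Dusp19. Dusp5, the nuclear ERK phosphatase, stood at 3.48, 4.21 and 5.18 CPM with siControl and 8.03, 8.8 and 7.37 CPM with siEhd1 (log2 fold change 0.91, SE 0.19, adjusted p = 0.0016), or 1.88-fold. Dusp9 stood at 4.97, 5.22 and 6.85 and 10.6, 10.6 and 9.41 CPM (log2 fold change 0.84, SE 0.13, adjusted p = 6.4e-05). Both ERK-selective phosphatase genes were well separated between the groups. Dusp23 rose from 6.91, 6.93 and 6.98 to 8.58, 10.7 and 8.9 CPM (log2 fold change 0.43, SE 0.10, adjusted p = 0.0034), and its resting siControl libraries were nearly equal. Dusp19, an atypical phosphatase, rose from 6.56 ± 0.613 to 8.38 ± 0.637 CPM (0.35, SE 0.12, adjusted p = 0.029), and Dusp12 fell from 8.68 ± 0.327 to 6.95 ± 0.882 CPM (-0.32, SE 0.11, adjusted p = 0.029). The Dusp19 call was lost without siControl replicate 1 or siEhd1 replicate 2 or 3, and the Dusp12 call without siControl replicate 1 or 2 or siEhd1 replicate 1. Opposite-strand genes overlap 49.8% of the exon bases of Dusp12 and 22.1% of those of Dusp5. Dusp1, Dusp4 and Dusp6 did not pass the test at rest (0.17, 0.26 and 0.089; adjusted p = 0.23, 0.065 and 0.53), and Dusp16 gave 14 ± 0.614 and 13.9 ± 0.919 CPM. Dusp4 was called higher by DESeq2 and without siControl replicate 2, and Dusp1 with the compared groups alone.

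Genes of dividing cells moved in the same comparison. The summed level of Mki67, Top2a, Ccnb1, Cdk1 and Bub1b was 107.5 to 163 CPM in resting siControl libraries and 353 to 437 CPM with siEhd1, with 5 of 5 genes higher. After LPS it was 124 to 133 CPM with siControl and 176 to 187 CPM with siEhd1, with 4 of 5 higher. Of the 8 macrophage markers 5 were lower with siEhd1 at rest, Lyz2 among them (14230 against 11310 CPM). The part of these shifts in the kinase and phosphatase results was not tested.

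After LPS the phosphatase gene with the smallest adjusted p for siEhd1 was Dusp16. It stood at 48.5, 46.2 and 40.7 CPM with siControl and 35.9, 36.8 and 33 CPM with siEhd1 (log2 fold change -0.35, SE 0.071, adjusted p = 0.0027), with every siEhd1 library below every siControl library. Dusp28 went from 5.82, 5.35 and 6.52 to 3.78, 4.41 and 4.7 CPM (log2 fold change -0.46, SE 0.13, adjusted p = 0.035), and Mapk6 from 146, 148 and 153 to 132, 134 and 130.4 CPM (log2 fold change -0.17, SE 0.048, adjusted p = 0.028). Dusp7, a cytoplasmic ERK phosphatase, rose from 51.2, 51.3 and 48.8 to 55.6, 66.4 and 54.4 CPM (log2 fold change 0.22, SE 0.068, adjusted p = 0.048), with siEhd1 replicate 2 above the other two. These groups did not overlap. The estimates of Dusp28, Mapk6 and Dusp7 kept their sign in every fit, but their calls were lost when 1 of several libraries was left out. The Dusp28 call was lost without siControl replicate 1 or 3 or siEhd1 replicate 1 or 2, the Mapk6 call without any 1 library other than siControl replicate 1, and the Dusp7 call without any 1 library other than siEhd1 replicate 3. The Dusp16 call held under each setting tried. The number that rose was 1 whichever library was left out, and the number that fell was 3 without siControl replicate 3 or siEhd1 replicate 1. Dusp1 gave 98, 122 and 135 against 108, 109.9 and 97 CPM, with overlapping libraries (-0.17, SE 0.094, adjusted p = 0.32). Without siControl replicate 1, the lowest of its group, Dusp1 was called lower (-0.29, adjusted p = 0.0078). Dusp6 gave 43.1, 43.9 and 44.7 against 35.4, 41.1 and 33.7 CPM, without overlap but not past the threshold (-0.25, SE 0.088, adjusted p = 0.084), and was called lower without siEhd1 replicate 2. Of 5 LPS response genes (Nos2, Il6, Il12b, Tnf and Il1b), 4 were tested and 1, Il1b, fell with siEhd1 after LPS, and the summed level of the 5 was 1462 to 1670 CPM with siControl and 1077 to 1252 CPM with siEhd1.

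A call in 1 state does not show that the siEhd1 effect differed between states. The difference itself was called for 1 of the 53 genes, Dusp23, where 2.93% of all tested genes were called in that direction. Its siEhd1 effect was 0.43 at rest and -0.071 after LPS (difference -0.51, SE 0.14, edgeR adjusted p = 0.029). It no longer passed without resting siControl replicate 1 or 2, resting siEhd1 replicate 2, LPS-treated siControl replicate 1 or 2, or LPS-treated siEhd1 replicate 1 or 2. In the other direction edgeR called 0 of the 53, beside 3.12% of all tested genes, and so did DESeq2 and limma-voom, with 2 at an unadjusted p under 0.05. The largest estimated difference was that of Dusp5 (-0.96, SE 0.32, adjusted p = 0.092), which missed the threshold but passed it without resting siControl replicate 3 or without LPS-treated siControl replicate 1. The differences of Dusp16 (-0.35, adjusted p = 0.066), Dusp6 (-0.34, 0.14), Dusp1 (-0.35, 0.18) and Map3k6 (-0.44, 0.11) did not pass the test either. Some of these passed with 1 library left out. The difference of Dusp1 passed without LPS-treated siControl replicate 1 (edgeR adjusted p = 0.0041). That of Dusp16 passed without resting siEhd1 replicate 3 or LPS-treated siControl replicate 3 and with library totals alone. That of Dusp6 passed without resting siEhd1 replicate 3. The median difference over the 19 phosphatase genes was -0.20, over the 34 kinase genes 0.031 and over all genes tested 0.002.

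Several core kinases of the cascades were not called with siEhd1 in either state. Map2k1 gave 0.11 (SE 0.051) at rest and -0.025 (SE 0.050) after LPS, and Map2k2 0.10 (SE 0.054) and -0.030 (SE 0.053). Map2k4 gave -0.067 and -0.087, Map2k7 -0.080 and -0.019, Mapk8 0.17 and 0.17, and Mapk9 0.038 and -0.094. Map3k7 gave -0.069 (SE 0.055) and -0.014 (SE 0.056), Map3k5 -0.18 and -0.12, and Map4k4 -0.033 and 0.063. At rest Map3k5 (adjusted p = 0.053) was called lower by limma-voom, with the compared groups alone and without siEhd1 replicate 2, and Map2k1 was called higher with library totals alone. In all, 31 of the 53 genes were called in neither state. Of all tested genes 28.2% were called at rest and 8.54% after LPS, and the share called in neither state was not computed.

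The letters GCCTTGT, known from an earlier look at these data to be frequent in the 3′ untranslated regions of genes lower with siEhd1, were searched for in the 53 genes. Of all tested genes with a known 3′ untranslated region, 27.3% of those lower at rest carried it, against 8.34% of those higher and 12% of those not called. After LPS the shares were 48.6%, 9.96% and 12.2%. The searched regions differed in length, with medians of 1475, 1142 and 1114 bases at rest for genes lower, higher and not called. After LPS those medians were 1596, 1333 and 1139 bases. Since the letters were picked from these data, the shares are not a separate result. Among the 53 genes 6 (11.3%) carried it, and 5 of these are shown with 9 bases on either side, 5′ to 3′ on the strand of the gene, with the 7 letters in capitals.
Map2k1 (chr9:64186279-64186285, minus strand): tgagagggaGCCTTGTgagaccctt
Map2k4 (chr11:65689595-65689601, minus strand): tagtattctGCCTTGTttttcacat
Map4k4 (chr1:40025879-40025885, plus strand): cagggagtaGCCTTGTagctgctgc
Dusp2 (chr2:127338119-127338125, plus strand): aaagcttaaGCCTTGTgctcccagg
Dusp6 (chr10:99266630-99266636, plus strand): ttctttaagGCCTTGTatggctgtt

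None of the 5 shown was called with siEhd1 in either state. The remaining carrier is among the genes not reported here, so that statement does not cover all 6. The 6 carriers had median siEhd1 effects of -0.043 at rest and -0.17 after LPS, and the genes without it -0.017 and -0.023. Map3k3, the gene with the largest fall in both states, did not carry the letters in its 3′ untranslated region of 1252 bases, nor did Dusp16. The siRNA sequences are not known from the labels, and the part of this sequence in the results was not tested.

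Other genes of the pathway, from lists chosen by function, were read beside the 53. Of 32 kinases, regulators and scaffolds at the RAF level, 3 rose and 3 fell with siEhd1 at rest, and 2 rose and 1 fell after LPS. Of all tested genes, 14.0% rose and 14.2% fell at rest and 4.44% and 4.10% after LPS. Taok1, a stress-responsive kinase of the MAP3 kinase tier, fell in both states (-0.24 and -0.21; adjusted p = 0.0044 and 0.031). Hras rose at rest (0.40, SE 0.087, adjusted p = 0.0019). Mras rose after LPS (0.42, SE 0.13, adjusted p = 0.049), and Ksr1, a scaffold of RAF and MEK, fell at rest (-0.39, SE 0.13, adjusted p = 0.027). Several of these calls were lost when 1 of several libraries was left out. The call of Taok1 after LPS was lost without siControl replicate 2 or 3 or siEhd1 replicate 2 or 3. That of Mras was lost without any 1 library other than siControl replicate 2. That of Ksr1 was lost without siControl replicate 1 or 2 or siEhd1 replicate 1 or 3.

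Of 10 kinases that MAP kinases activate, 1 rose and 2 fell with siEhd1 at rest, beside 14.0% and 14.2% of all tested genes. Mknk1, a kinase of the translation factor eIF4E, fell from 159 to 128 CPM (log2 fold change -0.31, SE 0.050, adjusted p = 9.3e-05). After LPS edgeR called 0 of the 10, as did DESeq2 and limma-voom, with 1 higher and 1 lower at an unadjusted p under 0.05. Of all tested genes edgeR called 4.44% higher and 4.10% lower after LPS. Of 15 tested genes in a list of other phosphatases (17 listed), many but not all of which act on MAP kinases, 5 rose and 3 fell at rest. The shares of all tested genes were the same 14.0% and 14.2%. Ppm1l rose from 3.65 to 7.71 CPM (log2 fold change 1.08, SE 0.15, adjusted p = 1.5e-05), and Ptpn7, a tyrosine phosphatase of blood cells that acts on ERK and p38, from 103 to 126 CPM (log2 fold change 0.30, SE 0.048, adjusted p = 9.2e-05). Ppp2ca, a catalytic subunit of PP2A, rose (0.21, SE 0.055, edgeR adjusted p = 0.0076), a call lost without siControl replicate 1. Ssh2, in the list though not an established MAP kinase phosphatase gene, fell (-0.21, SE 0.065, edgeR adjusted p = 0.018). The Ssh2 call was lost without siControl replicate 1 or siEhd1 replicate 1. After LPS 1 of the 15, Ppm1d, fell (-0.32, SE 0.10, adjusted p = 0.046; lost without siControl replicate 1 or 2 or siEhd1 replicate 1 or 3), beside 4.10% of all tested genes.

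Of 27 tested feedback inhibitors and early response genes (31 listed), 10 rose and 5 fell with siEhd1 at rest, beside 14.0% and 14.2% of all tested genes, with a median log2 fold change of 0.18 against -0.016 over all genes tested. Spred1, an inhibitor of RAS signalling to ERK, rose from 128 to 165 CPM (log2 fold change 0.37, SE 0.053, adjusted p = 2.5e-05) and Phlda1 from 2.11 to 4.38 CPM (log2 fold change 1.05, SE 0.20, adjusted p = 0.00056). Junb, a subunit of AP-1, also rose (0.25, SE 0.051, adjusted p = 0.00091), while Zfp36l2, an RNA-binding protein of AU-rich elements, fell (-0.35, SE 0.053, adjusted p = 4.4e-05). After LPS 3 of the 27 fell, beside 4.10% of all tested genes: Zfp36l2 (-0.28, SE 0.054, adjusted p = 0.002), Spred1 (-0.18, SE 0.053, adjusted p = 0.035) and Jund (-0.24, SE 0.069, adjusted p = 0.037). The Spred1 call was lost without siControl replicate 1 or 3 or any 1 siEhd1 library, and that of Jund without siControl replicate 2 or 3 or siEhd1 replicate 1 or 3. Higher after LPS, edgeR and limma-voom called 0 and DESeq2 called 1, with 3 at an unadjusted p under 0.05. Of all tested genes edgeR called 4.44% higher. With LPS and siControl, 12 of the 27 rose and 9 fell, beside 34.8% and 34.0% of all tested genes. Ier3, an early response gene, had the largest rise (4.28, SE 0.070). The largest fall was that of Egr3, an early response transcription factor gene, from 3.12 to 0.0989 CPM. With at most 3 counts in an LPS-treated siControl library, Egr3 met the count filter through the resting libraries. Its direction was thus in part fixed by that filter, and it is counted among the 9 falls. Zfp36l2 fell as well (-1.30, SE 0.054). With LPS the kinases that MAP kinases activate gave 3 rises and 6 falls among 10, with Rps6ka2 the largest fall (-2.02, SE 0.091) and Rps6ka4, an MSK gene, the largest rise (0.84, SE 0.053).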

How the data were processed

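RNA was column-purified and polyA-enriched, per the labels' protocols. Raw read counts per gene were deposited by the authors, 1 column per library, in 2 tables of 24421 genes, and 0 columns were left unused. The submitters' processing notes list STAR 2.7.6a, featureCounts 2.20.0, Trim Galore 0.6.3, cutadapt, FastQC 0.10.1, R 4.4.2 and DESeq2 1.46.0, and build mm10. The annotation, strand setting or rule for multi-mapping reads was not given in the sources used here, so overlapping and near-identical genes are uncertain.

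The deposited counts went into edgeR 4.0.16 (R 4.3.3) after filterByExpr (minimum count 10, minimum total 15; 12164 of 17270 detected genes kept, the rest at most 0.039% of a library). The 12 libraries entered 1 quasi-likelihood fit with 1 mean per group, TMM factors (0.916 to 1.09), robust dispersions and 8 residual degrees of freedom. The common biological coefficient of variation was 0.0588. Adjusted p-values are Benjamini-Hochberg over all tested genes, called at 0.05, from edgeR where no other tool is named. The SE of a log2 fold change is its size over the square root of F. The script was tested on simulated data. The 5 comparisons were siEhd1 against siControl in each state, the difference of those effects, and LPS-treated against resting with each siRNA. Comparisons that share a group share its 3 libraries. Alternatives were RLE size factors, library totals, 2 other filters, DESeq2 1.42.0, limma-voom (limma 3.58.1), the compared groups alone, a replicate block and leaving out each library.

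The labels do not say whether replicates were separate animals or cultures, so p-values reflect library-to-library spread, which may be technical. Replicate libraries differed beyond counting noise (chi-square over its degrees of freedom, 3.10 to 24.9). Among same-numbered libraries, deviations went together for all 3 numbers only across the states of the siEhd1 arm (correlations 0.169, 0.398 and 0.194). Each was the best match of its resting library among the LPS-treated siEhd1 libraries. Most other matches crossed the numbers. Resting siControl libraries 1, 2 and 3 went with siEhd1 libraries 3, 1 and 2, at rest (0.402, 0.298 and 0.364) and after LPS (0.203, 0.203 and 0.316). More weakly, LPS-treated siControl libraries 1, 2 and 3 matched LPS-treated siEhd1 libraries 3, 2 and 1 (0.101, 0.177 and 0.211). These pairings were taken from the data and not from the labels, and no fit used the crossed ones. Gene positions and exon lengths came from GENCODE M21 and promoters from RefSeq GRCm38.p6. The genes and lists were chosen with earlier results of these data known. Values are given for genes called in an siEhd1 comparison or in the difference, the 10 largest rises and 10 largest falls with LPS and siControl, a set of core genes whether called or not, up to 4 called genes per list with the smallest p, and Ehd1. Some genes within the counts are not reported here.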

Additional observations from a re-analysis of the deposited data

Results flagged for a closer look

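Among the 53 genes the siEhd1 effect differed between resting and LPS-treated cells for Dusp23 (difference on the log2 scale -0.51, SE 0.14, edgeR adjusted p = 0.029). It was higher with siEhd1 in 3 of 3 resting libraries against every siControl library, while the LPS-treated libraries overlapped. In the lists of other pathway genes the difference was called for 5 genes by the same edgeR test. They were 2 of 10 kinases that MAP kinases activate and 3 of 27 feedback and early response genes. At the RAF level 0 of 32 were called, and among the other phosphatases 0 of 15, beside 6.04% of all tested genes. Spred1, the inhibitor of RAS signalling, was higher with siEhd1 at rest and lower after LPS (difference -0.55, SE 0.075, adjusted p = 0.00011). Junb was higher at rest (difference -0.32, SE 0.072, adjusted p = 0.01), and Jun was lower at rest (difference 0.50, SE 0.10, adjusted p = 0.0053). Mknk1 was lower at rest (difference 0.28, SE 0.071, adjusted p = 0.022; lost without resting siControl replicate 1, resting siEhd1 replicate 1 or LPS-treated siEhd1 replicate 3). Rps6ka3 passed the test for the difference (-0.29, SE 0.079, adjusted p = 0.033) but not in either state alone. That last call was lost without resting siControl replicate 1 or 2, resting siEhd1 replicate 1 or 2, LPS-treated siControl replicate 2 or 3, or any 1 LPS-treated siEhd1 library.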

How the results depend on the processing

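Of the calls among the 53 genes, 10 of 18 (siEhd1, resting), 3 of 7 (siEhd1, LPS-treated), 0 of 1 (difference), 37 of 44 (LPS, siControl) and 34 of 39 (LPS, siEhd1) held under every alternative. With 1 library left out, the counts of genes higher and lower ranged over 6 to 9 and 4 to 8 (siEhd1, resting), 1 to 1 and 3 to 5 (siEhd1, LPS-treated), 0 to 0 and 0 to 3 (difference), 16 to 18 and 23 to 26 (LPS, siControl), and 14 to 16 and 21 to 23 (LPS, siEhd1). For siEhd1 after LPS the count higher was 1 with limma-voom, and with the compared groups alone it was 1 higher and 3 lower. With library totals alone the difference was called lower for 3 genes. That scaling turned the LPS effect with siControl for Map2k7 (-0.18), Map3k3 (-0.029), Mapk6 (-0.036), Mapk9 (-0.042), Ptpn7 (-0.18) and Taok1 (-0.16), and with siEhd1 for Map2k4 (-0.036), Map2k7 (-0.15), Map3k3 (-0.017), Map3k7 (-0.094), Mapk6 (-0.22), Mapk9 (-0.20) and Taok1 (-0.15). The scaling leaves out the composition factors by construction. DESeq2 did not call Dusp12, Dusp19, Map3k14 and Map4k1 at rest or Dusp28 after LPS with siEhd1.

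Replicate numbers did not pair the libraries within a state: deviations of same-numbered libraries within a state correlated at -0.37 to 0.18, and differently numbered ones at up to 0.40. A replicate block gave 14 calls in place of 18 for siEhd1 at rest (without Dusp12, Map3k1, Map3k14 and Map4k1), 4 in place of 7 after LPS (1 higher and 3 lower, without Dusp28, Dusp7 and Mapk6), 0 lower in place of 1 for the difference, 43 in place of 44 for LPS with siControl and 37 in place of 39 with siEhd1. A block over the siEhd1 libraries alone, chosen after the data were seen, gave 38 in place of 39 there, without Dusp10 and Map3k7 and with Map3k15. Same-numbered libraries were not pairs within a state, so siEhd1 calls lost under the replicate block are not thereby shown to be unstable. The cause of these moves was not tested. Counts were lowest for Dusp13, Dusp8, Dusp9 and Dusp10, where depth limits the precision.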
